A study of Mus musculus with 8 samples.

Results

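The genes described are the cell cycle cyclins, kinases, division checkpoint genes and replication factors of the mouse testis, taken by symbol. The symbols were those beginning with Ccna, Ccnb, Ccnd, Ccne, Cdk, Cdc, Mcm, Plk or E2f and a number, or with Aurk, Bub or Mad2l. Of 18097 genes in the table, 85 matched. Each array gives a detection p for every gene, which usually sets its signal against negative control beads. Here it did not follow the signal alone, since some genes of high signal missed the limit, as given below. Genes reaching a detection p below 0.01 on 4 or more of the 8 arrays were analysed, and 59 of the 85 did so, among 8324 genes in all.

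Whole testes of males of 17.5 days post partum on the MF1 background were compared. Each array was taken as 1 animal, giving 4 XEOSry and 4 XEZ2OSry animals. All 8 were XO and carried the transgenes Sry, which directs testis formation, and Eif2s3y, which lets spermatogonia proliferate, so neither genotype had a Y chromosome. XEZ2OSry males also carried Zfy2, a zinc finger gene of the Y, as a transgene on the X chromosome. XEOSry males had no Zfy gene, and the comparison asked what its absence changes in the testis shortly before the first meiotic division. Total RNA was hybridised to single-colour bead arrays and values are quantile normalized log2 signals. Differences are XEOSry minus XEZ2OSry on the log2 scale, so that a positive one is higher in XEOSry.

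The cell cycle is driven by kinases that act only when bound to a cyclin. D-type and E-type cyclins with Cdk4, Cdk6 and Cdk2 release E2F transcription factors and carry the cell from G1 into S phase. The Mcm2 to Mcm7 proteins form the ring-shaped helicase that is loaded on origins in G1, the step called licensing, and unwinds DNA in S phase. B-type cyclins with Cdk1, the Aurora and Polo kinases, and the spindle checkpoint and anaphase-promoting complex (APC/C) then govern division. Male germ cells replicate once before meiosis and then spend days in meiotic prophase, in which they make division proteins ahead of use. Some forms, such as cyclin A1 and Aurora kinase C, are found mainly in meiotic cells.

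Markers of pachytene spermatocytes varied among the animals and are given here to be read beside the values below. All 15 detected of 19 listed had a negative difference, with a median of −1.09, though none passed the adjusted threshold. Their mean log2 signal was 10.13, 8.83, 9.02 and 10.45 in XEOSry animals 1 to 4, against 11.05, 11.45, 11.08 and 10.30 in XEZ2OSry animals 1 to 4. Animal 4 thus stood highest among XEOSry and lowest among XEZ2OSry, and in these whole testes fewer cells of a type and less RNA per cell cannot be told apart. Of 4 measured spermatid markers, Tnp2, Prm1 and Acrv1 were detected on no array and Tnp1 on 4 of 8. The Zfy2 and Sry probes were detected on no array of either genotype and so gave no check of the labels. Eif2s3y was detected on all 8, with overlapping ranges and a difference of 0.54 ± 0.23 (SE; adjusted p 0.190, limma). From 8132 to 8434 genes were detected per XEOSry array and from 8063 to 8282 per XEZ2OSry array. The identifiers of the 4 XEOSry animals begin with the same number, and those of XEZ2OSry with several others. What these numbers stand for is not stated, and anything they mark cannot be told apart from genotype. Within XEOSry, the identifier of animal 4 shares its whole number with that of another animal and differs only in the last letter.

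No cell cycle gene passed the adjusted threshold of 0.05 in limma with Benjamini-Hochberg adjustment over all 8324 genes. In the same fit 2 genes were called higher (0.024%) and 3 lower (0.036%). The smallest adjusted p among the 59 was 0.108, for Cdk5. At an unadjusted p under 0.05, 11 of the 59 (18.6%) were higher and 8 (13.6%) lower, beside 12.9% and 12% of all genes. The median difference of the 59 was 0.057, beside 0.073 for all genes, and 36 of them (61%) were positive, beside 62%. A change of 1.5-fold or more was reached by 1 gene upward (1.69%; all genes 0.973%) and by 4 downward (6.78%; all genes 6.63%). As one list, the cell cycle genes thus had a median and shares close to those of the whole table.

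The animals numbered 4 decided the count of calls. Without XEOSry animal 4, 3 of the 59 were called higher (background 1.68%) and 5 lower (3.08%). Ccnb3, Cdk5 and Plk2 were the higher ones, and Bub1b, Cdc42ep3, Cdc42ep4, Mad2l2 and Mcm7 the lower ones. Without XEZ2OSry animal 4, Cdk5 and Plk2 were called higher (background 1.44%) and Aurka and Mad2l2 lower (4.79%). With both left out, a choice made after seeing the data, 7 of the 59 were called higher (7.96% of all genes) and 6 lower (11.4%). Together these were 22% of the 59, beside 19.3% of all genes.

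**Figure D1:**
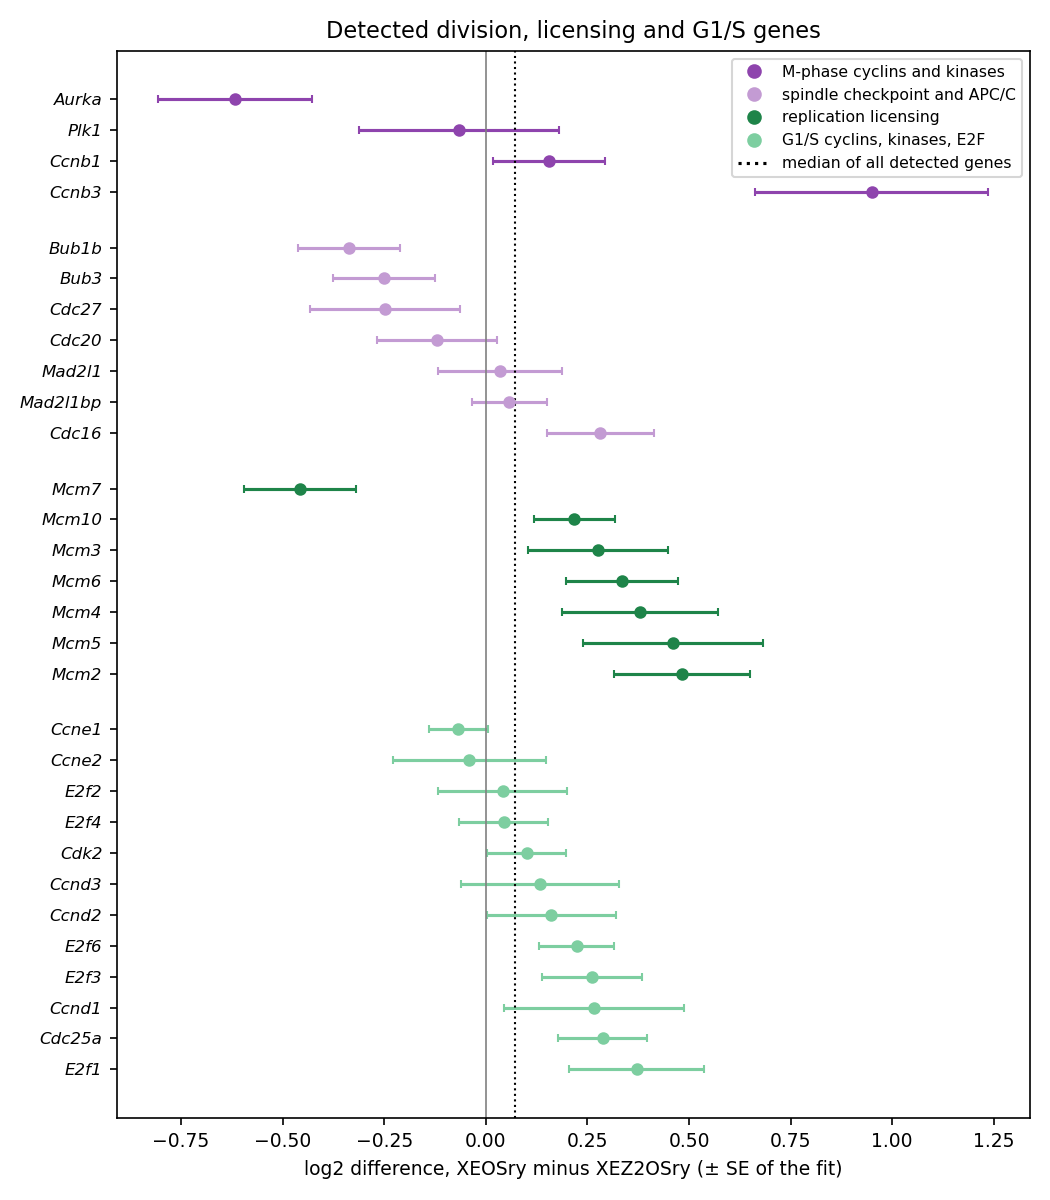
Log2 difference, XEOSry minus XEZ2OSry, with the standard error of the limma fit (horizontal bars) for the 30 detected genes of the division, licensing and G1/S roles, 4 animals per genotype. The dotted line marks the median of all 8324 detected genes, 0.073. Of the 7 licensing genes 6 lie to its right and Mcm7 lies at −0.46, while division genes lie on both sides, with Aurka at −0.62 and Ccnb3 at 0.95.

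Among the M-phase cyclins and kinases, 4 of 10 were detected on enough arrays, and they did not move as a group. Their differences ran over −0.62 for Aurka, −0.066 for Plk1, 0.15 for Ccnb1 and 0.95 for Ccnb3. Ccna1 and Aurkc, described next, stayed below the detection limit for analysis.

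Ccna1, cyclin A1, is the A-type cyclin of the male germ line and is required for entry into the first meiotic division. It was detected on no XEOSry array and on 3 of 4 XEZ2OSry arrays, all but that of animal 4. Its log2 signals were 6.47, 6.24, 6.25 and 6.52 in XEOSry, against 7.36, 8.35, 7.48 and 6.62 in XEZ2OSry. The genotypes did not overlap, although XEZ2OSry animal 4 lay only just above the highest XEOSry animal. Ccna1 was 2.00-fold lower in XEOSry testes (mean 6.37 ± 0.14 in XEOSry and 7.45 ± 0.71 in XEZ2OSry, SD, n = 4 each). This ratio sets the mean of the XEZ2OSry animals against, on each XEOSry array, the higher of the gene's own signal and the lowest signal of any detected gene. It is not a strict minimum, because the XEZ2OSry mean includes animal 4, in which the gene was not detected. With 3 detected arrays Ccna1 stayed below the limit for analysis. With no filter its limma adjusted p was 0.178 and its exact two-sided permutation p 0.0286, the smallest that 4 against 4 animals allow. That exact p follows from the lack of overlap alone. Among other genes below the limit, Cdk8, Cdc45l and Cdc25c reached it in the other direction, with higher signals in XEOSry.

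Aurkc, Aurora kinase C, a kinase of the chromosomal passenger complex in meiosis, was detected on the same 3 XEZ2OSry arrays and on no XEOSry array. Its signals were 6.48, 6.25, 6.39 and 6.43 in XEOSry, against 6.82, 7.23, 7.04 and 6.53 in XEZ2OSry. By the same ratio it was 1.39-fold lower in XEOSry (mean 6.39 ± 0.10 in XEOSry and 6.90 ± 0.30 in XEZ2OSry, SD, n = 4 each), with a limma adjusted p of 0.175 without a filter. As with Ccna1, XEZ2OSry animal 2 was highest and animal 4 close to the XEOSry range. Both genes followed the pachytene markers in this order of XEZ2OSry animals, and the markers' part in the result was not tested.

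Aurka, Aurora kinase A, acts at centrosomes and spindle poles and gave the lowest difference among the detected division genes. Its signals were 9.81, 9.38, 9.53 and 9.96 in XEOSry, against 10.16, 10.72, 10.34 and 9.91 in XEZ2OSry. The ranges overlapped through the animals numbered 4. The difference was −0.62 ± 0.19 (SE), 1.53-fold lower in XEOSry, with a limma adjusted p of 0.126. Without XEZ2OSry animal 4 the adjusted p was 0.0499 and the difference −0.74. Its promoter is shown because it carries the letters usual in genes switched on for division, the CHR element TTTGAA and the CCAAT box, here in capitals. It is the RefSeq window of 250 bases before to 50 after the annotated start in GRCm38.p6, chr2:172370521-172370820, minus strand, 5′ to 3′.
Aurka: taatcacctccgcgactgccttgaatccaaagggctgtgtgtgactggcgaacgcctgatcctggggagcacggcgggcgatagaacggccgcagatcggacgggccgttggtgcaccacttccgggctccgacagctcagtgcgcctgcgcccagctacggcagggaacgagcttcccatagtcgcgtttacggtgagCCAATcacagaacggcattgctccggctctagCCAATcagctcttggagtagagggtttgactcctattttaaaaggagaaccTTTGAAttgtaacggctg

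CCAAT was found 51 and 19 bases before the start, and TTTGAA from base 33 after it. RefSeq promoter windows were matched for 71 of the 85 genes. Among 18 division genes with a window, 7 held TTTGAA on either strand and 13 held CCAAT. Of 9 licensing genes with a window 3 held TTTGAA and 7 held CCAAT, and of 10 G1/S genes 2 and 6 did. The letters were thus not particular to division genes. Of all 27025 genes with a window 20.2% and 41.1% held them (17.9% and 37.4% of 32851 windows). All 7 division genes with TTTGAA, namely Aurka, Bub1b, Bub3, Cdc20, Cdc2a, Ccnb2 and Plk1, also held CCAAT. Neither Ccna1 nor Aurkc held TTTGAA.

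Ccnb3, cyclin B3, is an X-linked cyclin that in the mouse testis is made early in meiotic prophase, and it was the only gene of the 59 on the X chromosome. Its signals were 8.89, 9.84, 9.15 and 8.41 in XEOSry, against 8.61, 7.97, 7.85 and 8.07 in XEZ2OSry. XEOSry animals 1 to 3 lay above all XEZ2OSry animals and XEOSry animal 4 lay below XEZ2OSry animal 1. The difference was 0.95 ± 0.29 (SE), 1.93-fold higher in XEOSry (adjusted p 0.123, limma). X-linked genes in general had a positive difference in 277 of 285 cases with a median of 0.36. Their part in the value of Ccnb3 was not tested.

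**Figure D2:**
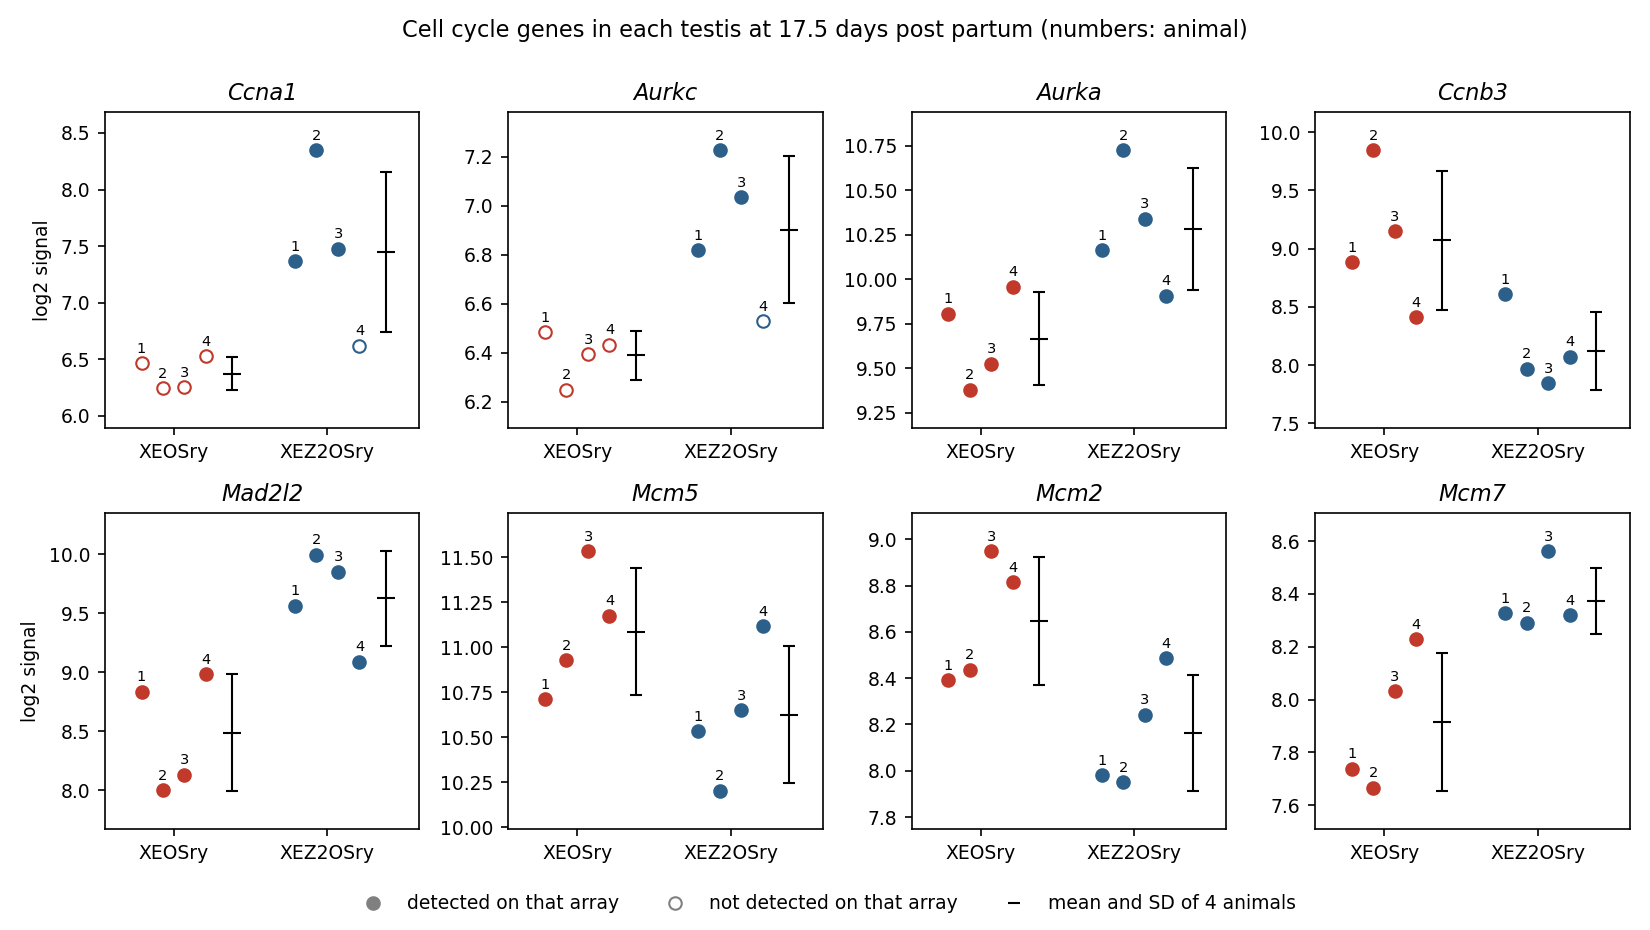
Log2 signal of 8 cell cycle genes in each animal (points, numbered by animal), with XEOSry in red and XEZ2OSry in blue. Open points were not detected on that array, and bars give the mean and SD of 4 animals. Ccna1 and Aurkc are open in all XEOSry animals and in XEZ2OSry animal 4, and Mcm7 runs opposite to Mcm2 and Mcm5.

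Ccnb1, cyclin B1, the main activating partner of Cdk1, differed little. Its signals were 8.70, 8.78, 8.77 and 8.30 in XEOSry, against 8.61, 8.34, 8.33 and 8.65 in XEZ2OSry. The ranges overlapped and the difference was 0.15 ± 0.14 (SE; adjusted p 0.493, limma). Plk1, the Polo kinase of mitotic entry, spanned 8.57 to 9.41 in XEOSry and 8.51 to 9.44 in XEZ2OSry. Cdk1 itself, listed under its older symbol Cdc2a, had a mean signal of 8.55 in XEOSry and 8.66 in XEZ2OSry but passed the detection limit on only 1 array of each genotype. Cdc25c, a phosphatase that activates Cdk1, was detected on 2 XEOSry arrays and on no XEZ2OSry array. Its mean signals of 6.91 in XEOSry and 6.72 in XEZ2OSry differed 1.14-fold, without overlap (adjusted p 0.224, limma without a filter). Ccnb2 and Cdc25b were detected on no array.

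Of 10 spindle checkpoint and APC/C genes 7 were detected, with 4 negative and 3 positive differences and a median of −0.12. The checkpoint kinase-related Bub1b (BubR1) and its partner Bub3, which hold back anaphase until chromosomes are attached, lay on the negative side. The APC/C subunits Cdc27 and Cdc16 lay on opposite sides.

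Bub1b had signals of 8.15, 8.03, 8.25 and 8.60 in XEOSry, against 8.64, 8.60, 8.62 and 8.52 in XEZ2OSry. XEOSry animals 1 to 3 lay below all XEZ2OSry animals and animal 4 lay within their range. The difference was −0.34 ± 0.12 (SE; adjusted p 0.153, limma), and without XEOSry animal 4 it was −0.45 with an adjusted p of 0.0472. Bub3 had signals of 7.78, 7.64, 7.95 and 8.09 in XEOSry, against 8.07, 8.23, 8.24 and 7.91 in XEZ2OSry. Its ranges overlapped through the animals numbered 4, with a difference of −0.25 ± 0.13 (SE; adjusted p 0.246, limma).

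Cdc16 ran the other way, with signals of 9.76, 10.02, 9.62 and 9.55 in XEOSry, against 9.59, 9.33, 9.29 and 9.62 in XEZ2OSry. Its difference was 0.28 ± 0.13 (SE; adjusted p 0.217, limma), whereas Cdc27 had a difference of −0.25 ± 0.18 (SE; adjusted p 0.415, limma). These subunits belong to one complex, and their ranges overlapped between genotypes for each. Mad2l1 (Mad2), which binds and restrains Cdc20, had the highest mean signal of the checkpoint genes. It had 10.74, 11.02, 10.56 and 10.43 in XEOSry, against 10.90, 10.52, 10.44 and 10.75 in XEZ2OSry, a difference of 0.035 ± 0.15 (SE; adjusted p 0.890, limma). Leaving out XEOSry animal 2 turned it to −0.075. Cdc20 differed by −0.12 and Mad2l1bp by 0.057. Cdc23, Cdc26 and Bub1 were detected on no array.

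Most replication licensing genes had a higher signal in XEOSry testes, with 1 exception inside the helicase itself, though none passed the test. Of 7 detected of 10, Mcm2, Mcm3, Mcm4, Mcm5, Mcm6 and Mcm10 had differences between 0.22 and 0.48, and Mcm7 had −0.46. The median was 0.34, beside 0.073 for all genes. At an unadjusted p under 0.05, Mcm2 and Mcm6 were higher (28.6%, beside 12.9% of all genes) and Mcm7 lower (14.3%, beside 12%). Positive differences made up 85.7% of the 7, beside 62% of all genes, and the adjusted p of the 7 ran from 0.123 to 0.336.

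Mcm2 had signals of 8.39, 8.44, 8.95 and 8.81 in XEOSry, against 7.98, 7.95, 8.24 and 8.49 in XEZ2OSry. The ranges overlapped only through XEZ2OSry animal 4. The difference was 0.48 ± 0.17 (SE), 1.40-fold higher in XEOSry (adjusted p 0.141, limma). Mcm5, with the highest signal of the role, had 10.71, 10.93, 11.53 and 11.18 in XEOSry, against 10.53, 10.20, 10.65 and 11.12 in XEZ2OSry. Its difference was 0.46 ± 0.22 (SE; adjusted p 0.230, limma), with XEZ2OSry animal 4 inside the XEOSry range. Mcm4, Mcm6 and Mcm3 differed by 0.38, 0.34 and 0.28, and Mcm10, which helps to activate the loaded helicase, by 0.22.

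Mcm7 had signals of 7.74, 7.67, 8.03 and 8.23 in XEOSry, against 8.33, 8.29, 8.56 and 8.32 in XEZ2OSry. All XEOSry animals lay below all XEZ2OSry animals, one of 6 genes among the 59 (10.2%) of which this was so, beside 4.58% of all genes. The difference was −0.46 ± 0.14 (SE), 1.37-fold lower in XEOSry, with a limma adjusted p of 0.123. Its exact permutation p of 0.0286 only restates the lack of overlap. The mean of Mcm2 to Mcm6 exceeded Mcm7 by 1.43, 1.69, 1.72 and 1.21 in XEOSry, against 0.62, 0.44, 0.51 and 1.09 in XEZ2OSry. These 4 XEOSry values lay above the 4 XEZ2OSry values, and since the contrast was picked after the values were seen it is given with no test. Signals of different probes are not on one scale, so only the shift between genotypes can be read from it.

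The promoters of Mcm5, Mcm6 and Mcm7 are shown because they share E2F-type letters although Mcm7 moved against the other 2. E2F factors switch on S-phase genes through such sites. The forms searched on both strands were TTTGGCGC, TTTCGCGC and TTTCCCGC, in capitals below, in RefSeq windows of GRCm38.p6, 5′ to 3′. They are chr8:75109259-75109558 (plus strand) for Mcm5, chr1:128359656-128359955 (minus strand) for Mcm6 and chr5:138171834-138172133 (minus strand) for the first of 2 Mcm7 starts.
Mcm5: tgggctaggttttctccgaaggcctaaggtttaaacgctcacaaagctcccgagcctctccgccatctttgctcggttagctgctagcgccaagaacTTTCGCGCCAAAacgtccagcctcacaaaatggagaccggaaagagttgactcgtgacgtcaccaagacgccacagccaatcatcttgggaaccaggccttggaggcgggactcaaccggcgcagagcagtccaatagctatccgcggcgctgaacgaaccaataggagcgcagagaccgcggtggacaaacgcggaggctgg
Mcm6: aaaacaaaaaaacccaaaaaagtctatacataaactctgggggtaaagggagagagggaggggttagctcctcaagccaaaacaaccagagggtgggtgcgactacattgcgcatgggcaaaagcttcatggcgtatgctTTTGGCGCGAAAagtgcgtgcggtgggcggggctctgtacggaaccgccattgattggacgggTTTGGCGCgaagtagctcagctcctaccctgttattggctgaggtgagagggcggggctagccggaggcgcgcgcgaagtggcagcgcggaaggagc
Mcm7: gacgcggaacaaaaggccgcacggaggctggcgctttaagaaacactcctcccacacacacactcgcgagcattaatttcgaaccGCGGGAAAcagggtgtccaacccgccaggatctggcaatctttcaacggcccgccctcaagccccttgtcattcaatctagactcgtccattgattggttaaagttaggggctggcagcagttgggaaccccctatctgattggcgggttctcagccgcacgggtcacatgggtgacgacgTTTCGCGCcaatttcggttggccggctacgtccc

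An E2F form was present in 5 of 9 licensing genes with a window, in 5 of 10 G1/S genes and in 1 of 18 division genes, and in 2.12% of all 27025 genes with a window (1.84% of windows). Mcm5 held 2 overlapping forms, Mcm6 held 3, of which 2 overlapped, and Mcm7 held 2, 1 of them overlapping a CCAAT box. The second Mcm7 window and that of Mcm2 held none. Letters of a MYB site (AACTGCC) were found in no licensing gene and 1 division gene, Ccnb3 (4.76% of all genes, 4.12% of windows). A cAMP response element (TGACGTCA) was found in 1 licensing gene, Mcm5 (2.03% of all genes, 1.79% of windows). A match in a window shows that the letters are there and nothing about binding.

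Markers of other testis cells varied beside the licensing genes. The mean of the 7 detected licensing genes was 8.84, 9.003, 9.35 and 9.13 in XEOSry, against 8.77, 8.59, 8.88 and 9.11 in XEZ2OSry. The mean of 7 detected Sertoli markers of 9 measured was 10.86, 10.86, 11.35 and 10.99 in XEOSry, against 10.63, 10.33, 10.88 and 11.28 in XEZ2OSry. In both lists XEOSry animal 3 was highest and XEZ2OSry animal 2 lowest, and 6 of the 7 markers had a positive difference, with a median of 0.23. The 3 detected peritubular markers were all positive (median 0.29), with the same animals highest and lowest, and the 4 detected macrophage markers were all positive (median 0.32). Of 4 detected Leydig markers 2 were positive (median −0.036). Early meiotic markers were positive in 5 of 7 (median 0.18), with means between 9.04 and 9.27 in XEOSry and between 8.99 and 9.10 in XEZ2OSry. Spermatogonial markers were positive in 5 of 6 (median 0.17), the exception being Id4 at −0.89, and their means spanned 8.56 to 8.85 in XEOSry and 8.40 to 8.94 in XEZ2OSry. The part of these cells in the licensing values was not tested.

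Cdc6, Cdc45l (Cdc45) and Cdc7, which load or fire the helicase, fell short of the detection limit, with a detected array only for Cdc7, in XEOSry. Cdc6 had a mean signal of 7.12 in XEOSry and 7.03 in XEZ2OSry. The other 2 were not low in signal. Cdc7 had a mean of 9.77 in XEOSry and 9.65 in XEZ2OSry, and Cdc45l had 8.67 in XEOSry and 8.47 in XEZ2OSry. The genotypes did not overlap for Cdc45l (adjusted p 0.217, limma without a filter). With a filter on mean signal in place of detection, all 3 entered with differences of 0.085, 0.20 and 0.12 for Cdc6, Cdc45l and Cdc7, and the licensing median became 0.25. In all, 7 of the 26 cell cycle genes that were not analysed had a mean log2 signal of 8 or more, as had 249 of the 9773 genes of the whole table that were not analysed, so an undetected gene is not shown to be unexpressed.

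**Figure D3:**
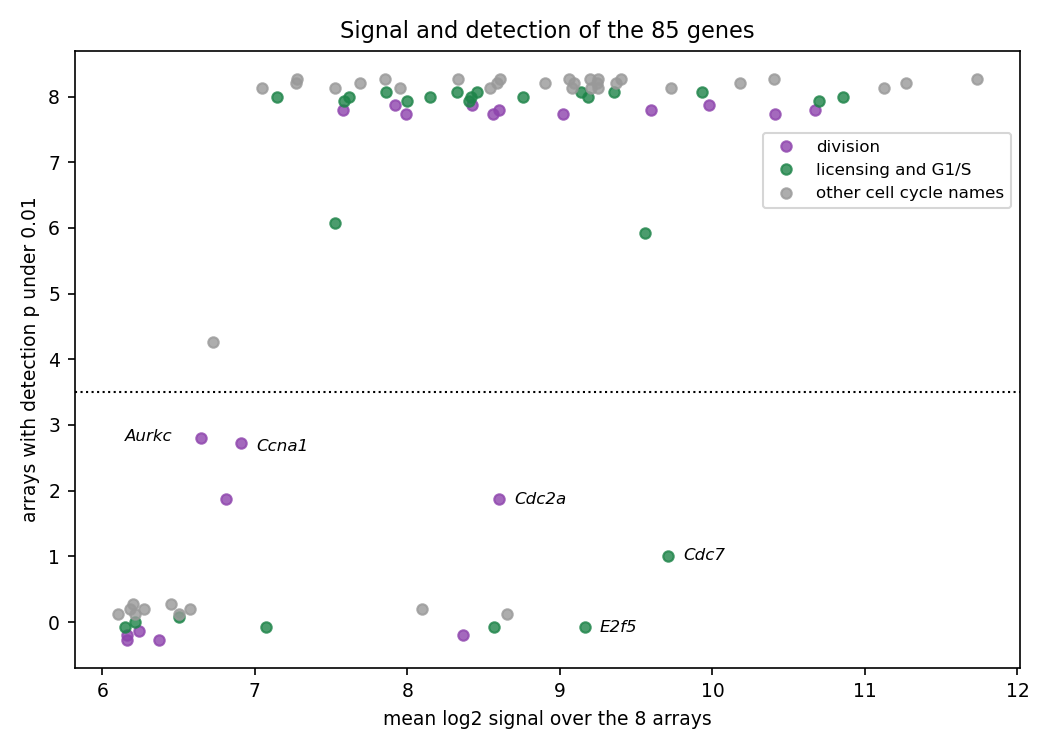
Mean log2 signal over the 8 arrays (x axis) against the number of arrays with a detection p under 0.01 (y axis, points spread slightly) for the 85 genes, coloured by role. Genes above the dotted line were analysed. Of the 26 below it, 7 lie at a mean signal of 8 or more, among them Cdc7 and E2f5, while Ccna1 and Aurkc lie at 3 arrays.

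In the G1/S role 12 of 16 genes were detected, of which 10 had a positive and 2 a negative difference (62% of all genes were positive), with a median of 0.15. E2f1, an activating E2F factor, had the highest difference. Its signals were 9.16, 9.44, 9.50 and 9.39 in XEOSry, against 8.91, 8.61, 9.06 and 9.42 in XEZ2OSry, so that only XEZ2OSry animal 4 reached the XEOSry range. The difference was 0.37 ± 0.17 (SE; adjusted p 0.204, limma). Cdc25a, the phosphatase that activates Cdk2, had 8.25, 8.45, 8.69 and 8.49 in XEOSry, against 8.28, 8.19, 8.08 and 8.18 in XEZ2OSry. Here XEOSry animal 1 alone overlapped, with a difference of 0.29 ± 0.11 (SE; adjusted p 0.159, limma).

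Ccnd1, cyclin D1, had 8.56, 8.80, 9.24 and 8.96 in XEOSry, against 8.23, 8.28, 8.95 and 9.05 in XEZ2OSry. The difference of 0.27 ± 0.22 (SE; adjusted p 0.467, limma) was below the SD between animals, 0.28 in XEOSry and 0.43 in XEZ2OSry. Cdk2, with the highest mean signal of the role, had 10.61, 10.69, 10.84 and 10.87 in XEOSry, against 10.59, 10.55, 10.69 and 10.77 in XEZ2OSry. Its difference was 0.10 ± 0.10 (SE; adjusted p 0.530, limma). E2f3 and E2f6 differed by 0.26 and 0.22, Ccnd2 and Ccnd3 by 0.16 and 0.13, and E2f2 and E2f4 by 0.042 and 0.044.

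The E-type cyclins, partners of Cdk2 at the start of S phase, were the 2 with negative differences. Ccne1, named after its values were seen, had 7.10, 7.11, 7.10 and 7.14 in XEOSry, against 7.16, 7.18, 7.18 and 7.20 in XEZ2OSry. The genotypes did not overlap, so the exact permutation p was again 0.0286, but the difference was only −0.068 ± 0.073 (SE; adjusted p 0.571, limma). Ccne2 differed by −0.041. Ccna2, Cdk6, E2f5 and E2f7 were detected on no array.

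Set against each other, the division role lay below the licensing role. The median of the 11 detected division genes was −0.066 and that of the 7 licensing genes 0.34, a gap of −0.40. Per animal, the division mean minus the licensing mean was 0.073, −0.029, −0.32 and −0.17 in XEOSry, against 0.22, 0.43, 0.080 and −0.16 in XEZ2OSry. The ranges overlapped through XEZ2OSry animal 4, and XEOSry animal 1 lay just below XEZ2OSry animal 3. The division mean itself hardly varied, at 8.92, 8.97, 9.03 and 8.96 in XEOSry, against 8.998, 9.02, 8.97 and 8.95 in XEZ2OSry. The genotypes' means over animals differed by −0.014 for the division genes and by 0.24 for the licensing genes. Leaving out single animals moved the division median between −0.20 and 0.052 and the licensing median between 0.25 and 0.43. With M-phase cyclins and kinases alone as the division role its median was 0.045.

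**Figure D4:**
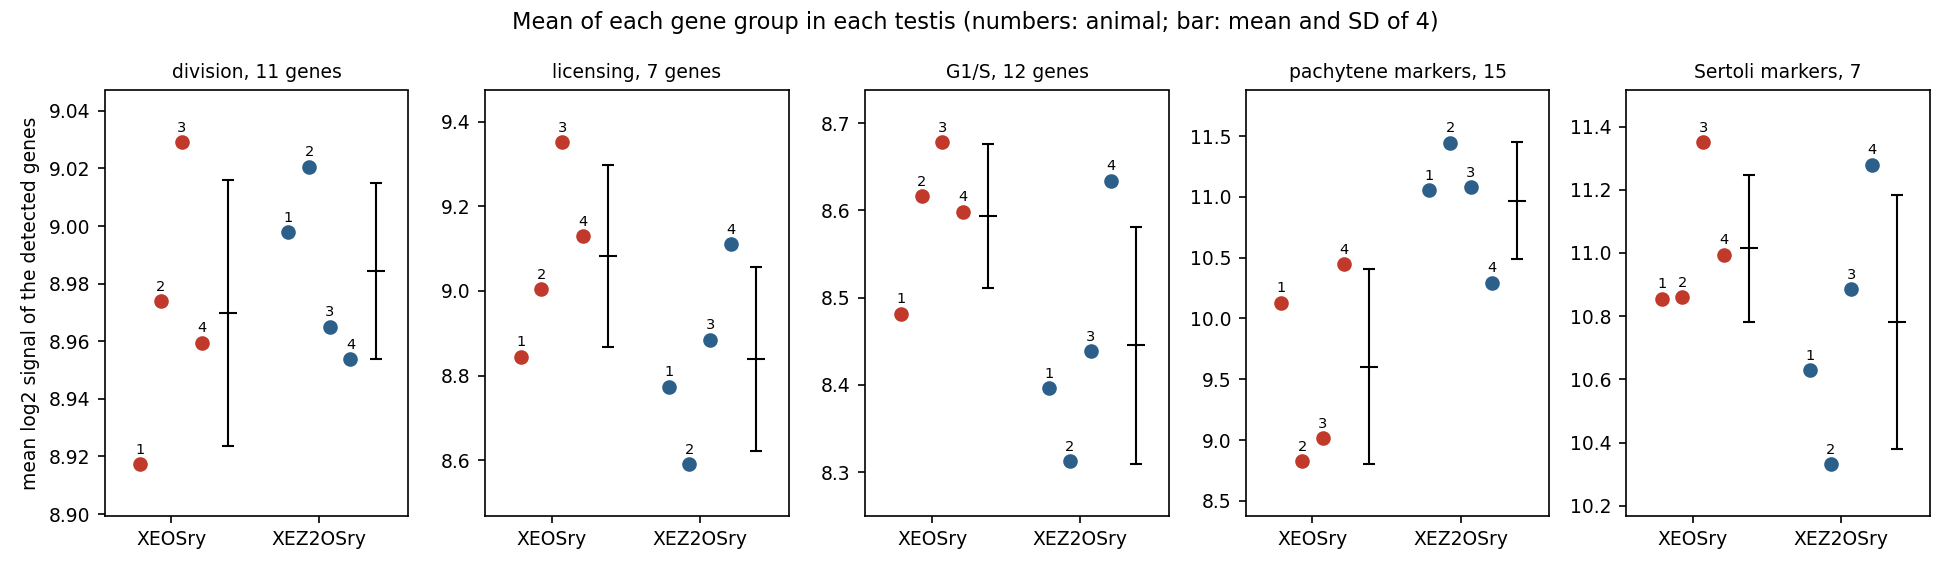
Mean log2 signal of the detected division, licensing and G1/S genes and of pachytene and Sertoli markers in each animal (points, numbered), XEOSry in red and XEZ2OSry in blue, with the mean and SD of 4 animals. Each panel has its own scale. Division means span 8.92 to 9.03, licensing means 8.59 to 9.35 and pachytene means 8.83 to 11.45, with XEZ2OSry animal 4 at the XEOSry level for licensing and pachytene genes.

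Mad2l2 (Rev7), a subunit of DNA polymerase zeta and of the shieldin complex that also restrains the APC/C, was the only recombination and repair gene detected, as Mcm8 and Mcm9 were found on no array. Its signals were 8.83, 8.002, 8.13 and 8.98 in XEOSry, against 9.56, 9.996, 9.85 and 9.09 in XEZ2OSry. The genotypes did not overlap, and XEOSry animal 4 and XEZ2OSry animal 4 lay next to each other. The difference was −1.14 ± 0.27 (SE), 2.20-fold lower in XEOSry, with a limma adjusted p of 0.112. Its exact permutation p of 0.0286 only restates the lack of overlap. Without XEOSry animal 4 the adjusted p was 0.0459, and without XEZ2OSry animal 4 it was 0.0393. XEOSry animals 2 and 3, with the lowest Mad2l2, also had the lowest pachytene means, and the markers' part was not tested.

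Among the remaining names, most of which carry a cell cycle symbol without a core role, 12 of 24 detected were positive and 12 negative. The lowest difference of all 59 belonged to Cdc42ep3, an effector of the GTPase Cdc42 that binds septins. Its signals were 11.10, 9.63, 9.80 and 11.55 in XEOSry, against 11.96, 12.16, 12.15 and 11.79 in XEZ2OSry. No animal overlapped, and XEOSry animals 2 and 3 were again lowest. The difference was −1.50 ± 0.40 (SE), 2.82-fold lower in XEOSry (adjusted p 0.117, limma; 0.0434 without XEOSry animal 4).

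Cdc42ep4, of the same family, had 8.72, 8.20, 9.005 and 9.38 in XEOSry, against 9.50, 9.76, 9.51 and 9.51 in XEZ2OSry. Its difference was −0.74 ± 0.22 (SE; adjusted p 0.121, limma), again without overlap. Cdc42bpb, a kinase bound by Cdc42, had 9.14, 9.27, 9.98 and 9.72 in XEOSry, against 8.92, 8.70, 8.82 and 9.47 in XEZ2OSry. XEZ2OSry animal 4 overlapped, and the difference was 0.55 ± 0.22 (SE; adjusted p 0.173, limma). Cdc42ep5 and Cdc42se1 also had positive differences, of 0.50 and 0.44, so the Cdc42 partners lay on both sides. Cdc123, chosen after its values were seen because its genotypes did not overlap, had 7.28, 7.17, 7.09 and 6.93 in XEOSry, against 7.34, 7.54, 7.38 and 7.44 in XEZ2OSry. Its difference was −0.31 ± 0.10 (SE; adjusted p 0.130, limma).

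Plk2, Cdk2ap2 and Cdk5 were the 3 genes of the 59 (5.08%) in which all XEOSry animals lay above all XEZ2OSry animals, beside 6.34% of all genes, and they are named for that reason after their values were seen. Cdk5, a kinase studied mainly in neurons and activated by p35 (Cdk5r1) in place of a cyclin, had 9.45, 9.74, 9.43 and 9.25 in XEOSry, against 9.003, 8.83, 8.87 and 9.06 in XEZ2OSry. Its difference was 0.53 ± 0.12 (SE; adjusted p 0.108, limma), and that of Cdk5r1 was 0.17. Plk2 differed by 0.39 ± 0.090 (SE; adjusted p 0.110, limma) and Cdk2ap2 by 0.48. The cyclin-dependent kinases of transcription, 4 of 6 detected, differed by −0.052 to 0.13. Cdk8, of the same role and named after its values were seen, was detected on no array. Its mean signals were 8.24 in XEOSry and 7.95 in XEZ2OSry, without overlap. The difference was 0.30, with a limma adjusted p of 0.128 without a filter and 0.119 with the filter on mean signal.

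Genes that work with these were examined as 3 lists. Of 31 measured division partners (APC/C subunits, separase and its inhibitor, passenger complex and spindle genes), 17 were detected, none was called higher or lower, and the median was −0.028. Pttg1, securin, the inhibitor of separase, had 8.02, 7.29, 6.95 and 8.02 in XEOSry, against 8.47, 8.96, 8.43 and 7.71 in XEZ2OSry. Its difference was −0.83 ± 0.31 (SE; adjusted p 0.157, limma), with overlap through XEZ2OSry animal 4. Cenpa, the centromeric histone, had 11.92, 12.32, 12.22 and 11.85 in XEOSry, against 11.43, 11.17, 11.72 and 11.80 in XEZ2OSry. It did not overlap, with a difference of 0.55 ± 0.17 (SE; adjusted p 0.124, limma).

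Of 38 measured replication partners (origin recognition, polymerases, clamp and clamp loader, nucleotide supply), 29 were detected and none was called. Of these 18 were positive and 11 negative, with a median of 0.082, beside 0.073 for all genes. Fen1, the flap nuclease of lagging strand synthesis, had 10.15, 10.36, 10.51 and 10.25 in XEOSry, against 9.71, 9.41, 9.85 and 9.92 in XEZ2OSry. The difference was 0.59 ± 0.13 (SE; adjusted p 0.108, limma). Pcna, the sliding clamp that binds Fen1, ran opposite, with 7.71, 7.65, 7.12 and 7.53 in XEOSry, against 8.01, 8.15, 7.89 and 8.04 in XEZ2OSry. The difference was −0.52 ± 0.14 (SE; adjusted p 0.116, limma), and neither gene overlapped between genotypes.

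Of 12 inhibitors and pocket proteins 9 were detected and none was called, with a median of −0.090. Cdkn2c (p18INK4c), an inhibitor of Cdk4 and Cdk6, had 7.96, 7.51, 7.57 and 8.06 in XEOSry, against 8.72, 9.13, 8.87 and 8.32 in XEZ2OSry. All XEOSry animals lay below all XEZ2OSry animals, with a difference of −0.99 ± 0.19 (SE), 1.98-fold lower (adjusted p 0.0931, limma). Rbl1 (p107), a pocket protein that holds E2F in check, had 8.74, 8.53, 8.41 and 8.84 in XEOSry, against 9.09, 9.16, 8.94 and 8.84 in XEZ2OSry. Its difference was −0.38 ± 0.12 (SE; adjusted p 0.130, limma).

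The animals numbered 4 had pachytene marker means of 10.45 in XEOSry and 10.30 in XEZ2OSry, and their values follow for genes picked after these were seen. In XEOSry animal 4, Mad2l2 had 8.98, Aurka 9.96, Mcm7 8.23, Ccna1 6.52, Ccnb3 8.41, Ccnb1 8.30 and Mcm2 8.81, and the licensing mean was 9.13. In XEZ2OSry animal 4, Mad2l2 had 9.09, Aurka 9.91, Mcm7 8.32, Ccna1 6.62, Ccnb3 8.07, Ccnb1 8.65 and Mcm2 8.49, and the licensing mean was 9.11. Mad2l2, Aurka and Mcm7 lay close in the pair and Ccnb3, Ccnb1 and Mcm2 farther apart. Mcm2 did not stand for its role, whose other genes lay closer. Mcm5 had 11.18 in XEOSry animal 4 and 11.12 in XEZ2OSry animal 4, and Mcm3 had 8.15 and 8.11. Mcm10 had 8.51 and 8.40, Mcm6 9.32 and 9.46, and Mcm4 9.71 and 9.87, in the same order. With 1 animal of each genotype these pairs carry no test.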

How the data were processed

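The authors hybridised testis RNA of each animal to an Illumina BeadChip and deposited quantile normalized log2 values per gene, each with a detection p-value for that array. The submitters' processing notes name GenomeStudio 2011.1. The authors also deposited linear intensities called non-normalized, but their array medians of 105.5 to 106.3 show that they were already aligned, so alternatives from them do not start from raw signal. The series value table held the same log2 values and was not used. Precision is limited by the number of arrays, 4 per genotype in the labels. The methods state 3 XEOSry animals with matched controls, and which animals these were is not given in the sources used here. The identifiers of XEOSry animals 3 and 4 share their whole number and differ only in the last letter. According to the methods each individual had its own hybridisation, but they count 3 XEOSry individuals where the labels give 4 arrays. Whether both of these arrays stand for separate animals is thus not settled by the sources. Their pachytene marker means were 9.02 for XEOSry animal 3 and 10.45 for XEOSry animal 4.

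Genes reaching a detection p below 0.01 on 4 or more arrays entered a linear model (R 4.3.3, limma 3.58.1: lmFit, eBayes, genotype only, two-sided, Benjamini-Hochberg over 8324 genes, threshold 0.05), a fit tested on simulated data. Exact permutation tests used all 70 assignments. Each array was taken as a separate animal, which the labels do not state, and on that reading p-values measure the spread between animals.

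Members, roles and lists were chosen with earlier results of these data known, so list medians carry no test. Of the 85 symbols 80 matched RefSeq directly and 5 by synonym. Values of every animal are given for the 3 largest differences and the highest signal in each role, the 3 largest among other names, Mad2l2 and the germ cell forms, and the 2 largest of each list. Some genes outside this rule are named after their values were seen. Other filters, normalizations, variance models, the replicate block and leaving out animals were tried. Tables and plots were made with pandas 2.3.3, numpy 2.4.6 and matplotlib 3.10.9 under Python 3.11.15.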

Additional observations from a re-analysis of the deposited data

Results flagged for a closer look

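Over 42 sets of 4 animals (each named gene and role mean within a genotype), an animal stood apart from the other 3 in 2 sets, and chance flags about 1 in 20. For Mcm7 in XEZ2OSry, animal 3 at 8.56 lay above the others at 8.29 to 8.33, the gap being 0.863 of the whole range. For Cdc42ep4 in XEZ2OSry, animal 2 at 9.76 lay above the others at 9.50 to 9.51, the gap being 0.949 of the range.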

How the results depend on the processing

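No cell cycle gene was called under any alternative filter, normalization, centring, variance model or the replicate block. Leaving out single animals gave 0 to 8 calls, and leaving out both animals numbered 4, added after seeing the data, gave 13. Leaving out single animals moved the division median between −0.20 and 0.052, and M-phase cyclins and kinases alone gave 0.045. The licensing median and the gap between division and licensing kept their sign throughout. Mad2l1 ran between −0.075 and 0.12 on leaving out single animals, and it turned negative without XEOSry animal 2 (−0.075), XEZ2OSry animal 2 (−0.0073) or XEZ2OSry animal 3 (−0.036), and no other named gene reversed. The cause of these shifts was not tested. Of the values of named genes under alternatives, 306 kept their direction and side of the threshold and 15 came past it, all on leaving out an animal numbered 4.

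Deviations of same-numbered animals had correlations of 0.43, −0.23, 0.33 and −0.42, which show no pairing by number. The methods call the controls matched, and this check cannot exclude a pairing, since deviations within a genotype depend on each other. With the replicate block 1 gene of the table was called, against 5 without it, no cell cycle gene was (smallest adjusted p 0.231, limma), and the division and licensing medians stayed at −0.066 and 0.34. For genes near background, such as Ccna1 and Aurkc, ratios were taken against the lowest detected signal and are not exact.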
